A study of Canis lupus familiaris with 25 samples.

Results

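The antigen presentation genes encode the molecules that cut proteins into peptides, carry the peptides to major histocompatibility complex (MHC) molecules and display them at the cell surface, where T cells inspect them. In the dog the MHC molecules are called dog leukocyte antigens (DLA). The genes described here were the rows of the gene table whose name starts with DLA or HLA-, or equals 1 of 26 listed symbols of the pathway. The rule found 38 of 24532 rows. DLAT, a subunit of the pyruvate dehydrogenase complex, only shares the letters of the name and was set aside, which left 37 genes, and CTSL of the list had no row under that symbol.

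The counts came from QuantSeq 3′ RNA sequencing of archival formalin-fixed and paraffin-embedded (FFPE) tumor tissue that had been excised from pet dogs for diagnosis. There were 10 heptoid (hepatoid) gland adenomas (HGA), benign tumors of the modified sebaceous glands around the anus, 11 primary apocrine gland anal sac adenocarcinomas (AGASAC), malignant tumors of the glands in the anal sac wall, and 4 sublumbal lymph node metastases. The metastases came from the dogs of AGASAC 1 to 4 and share their numbers, and the other primary tumors had no metastasis in the series. The labels give neither a treatment nor a genotype beyond the breed.

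The dogs with HGA were 8 to 14 years old, with a median of 12 years, and 4 of the 10 were neutered. The dogs with primary AGASAC were 8 to 12.5 years old, with a median of 10 years, and 9 of the 11 were neutered. The dogs with metastases were 8 to 10 years old and 3 of the 4 were neutered. The 10 HGA came from 10 breed labels and the 11 primary AGASAC from 10. The authors cut away tissue next to the tumor, but a section can still hold stroma and immune cells besides tumor cells, and it is 1 block per tumor.

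In the class I route, which nearly every nucleated cell uses, the proteasome cuts cytosolic proteins, the TAP1 and TAP2 transporter moves the peptides into the endoplasmic reticulum, and a loading complex places them on a heavy chain paired with beta-2-microglobulin. In the class II route, which is best known from dendritic cells, macrophages and B cells and which epithelial cells can be induced to use, alpha and beta chains travel with the invariant chain CD74 to endosomes, where proteases degrade it and the DM exchange factor puts a peptide in its place. Interferon gamma is the classic inducer of both routes, through the coactivators NLRC5 for class I and CIITA for class II.

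Total counts per library were 1562347 to 6389555 in HGA, 2581453 to 4218340 in primary AGASAC and 2857541 to 3289546 in the metastases. Levels are given as CPM (cpm of edgeR, the gene's count relative to the library total) and scaled with the trimmed mean of M-values (TMM) over the 25 libraries. QuantSeq 3′ makes about a single fragment per transcript at its 3′ end, so these levels are not divided by gene length. A count of 0 allowed up to 3 counts, which corresponds to 0.470 to 1.92 CPM depending on the library total, before TMM scaling. Such limits cover counting error only. The sums of epithelial markers separated the tumor types as labelled. Summed CPM of 6 glandular markers such as KRT8 and KRT19 were 409 to 731 in HGA, 5392 to 10188 in primary AGASAC and 5251 to 10452 in the metastases. The summed CPM of 6 basal and sebaceous markers such as KRT14 and KRT79 were 5602 to 17742 in HGA, 91.4 to 1838 in primary AGASAC and 121 to 1142 in the metastases. PLIN2 of this list went the other way, with means of 293 CPM in HGA, 573 CPM in primary AGASAC and 670 CPM in the metastases.

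**Figure D1:**
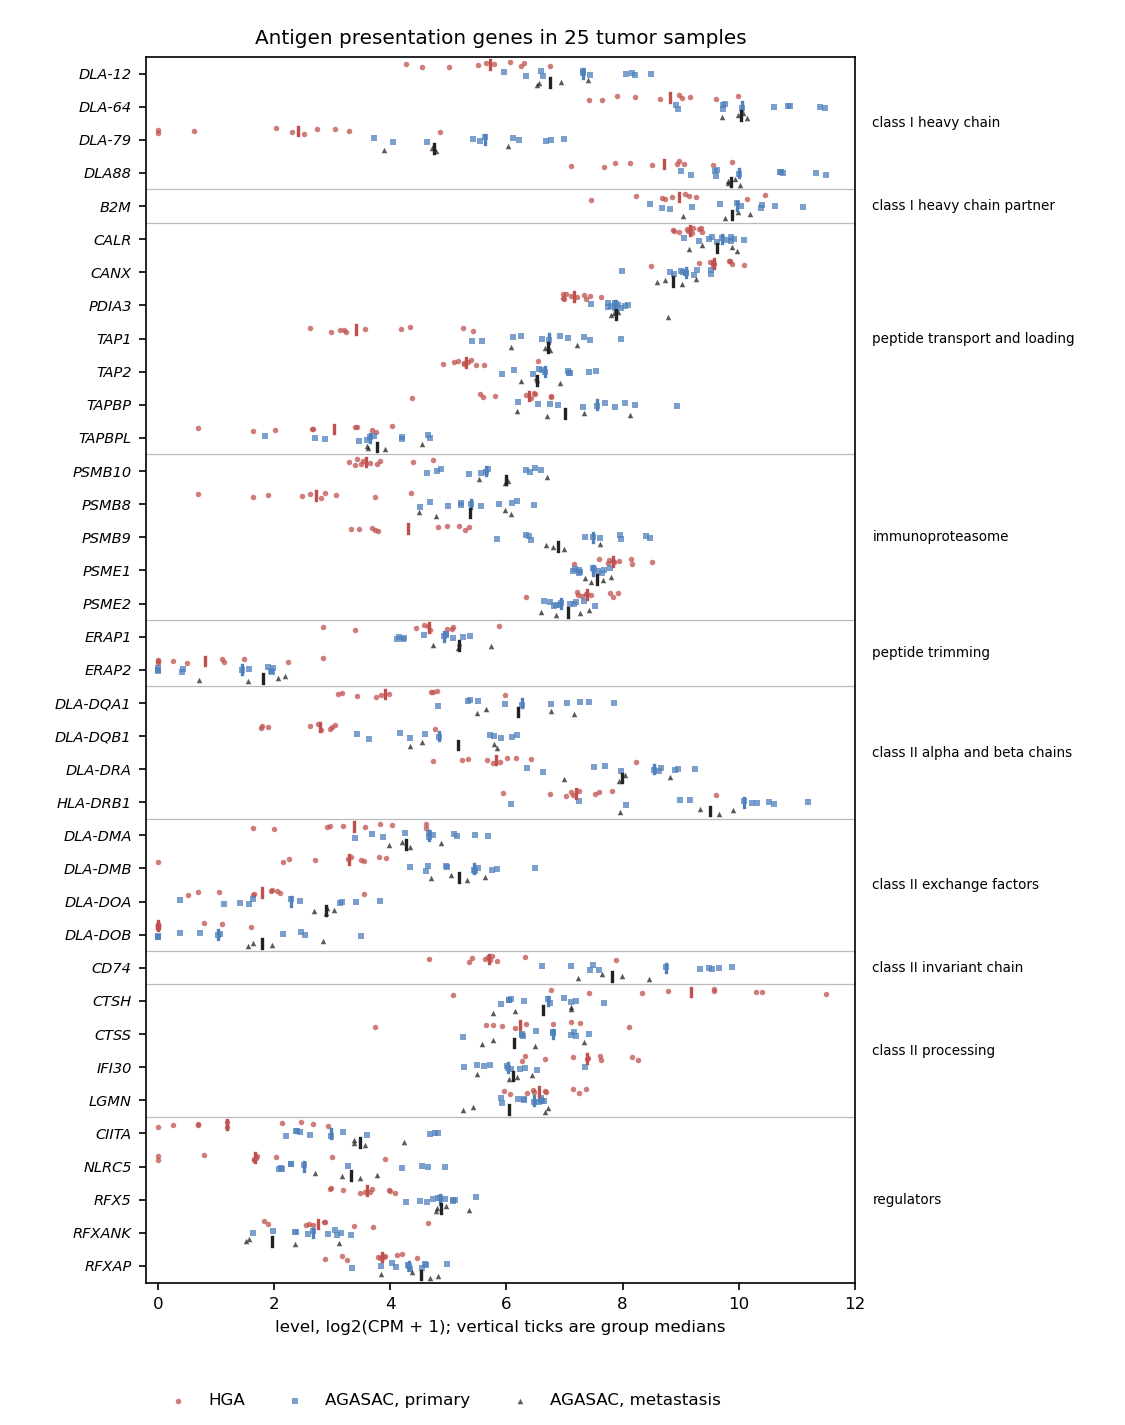
Levels of the 37 antigen presentation genes as log2(CPM + 1) in each of the 25 samples, grouped by role, with red circles for HGA, blue squares for primary AGASAC, black triangles for metastases and vertical ticks for group medians. The HGA medians lie to the left of the AGASAC medians for TAP1, PSMB8, PSMB9, PSMB10 and the class II chains, and to the right for CTSH and IFI30.

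The comparison of HGA with primary AGASAC asked how the tumor entities differ. Much of the antigen presentation machinery was lower in HGA. In total, 18 of the 34 genes that passed the filter on low counts were called lower and 2 were called higher, with a call needing an adjusted p no higher than 0.05 together with a log2 fold change of 1 or more in size (quasi-likelihood test of edgeR, adjusted by Benjamini-Yekutieli over 12070 genes). Over all genes tested, 12.5% were called lower and 12.6% higher. The median log2 fold change of HGA relative to AGASAC was -1.41 over the 34 genes and -0.03 over all genes. The catalytic immunoproteasome subunits, TAP1, CD74 and the class I and class II chains were in the lower direction, and the cathepsin CTSH and the reductase IFI30 in the higher direction. The levels of HGA and AGASAC did not overlap in 4 of the genes, PSMB8, PSMB9, DLA-DMB and RFX5, against 9.13% of all genes tested. DLA-DOA, DLA-DOB and ERAP2 did not pass the filter and were not tested.

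The 3 inducible catalytic proteasome subunits were called lower in HGA. PSMB8, PSMB9 and PSMB10 replace the constitutive catalytic subunits PSMB5, PSMB6 and PSMB7 when the immunoproteasome is built. PSMB9 was at 8.98 CPM in the lowest HGA, 20.1 in the median and 40.0 in the highest, at 56.5, 178 and 353 CPM in primary AGASAC, and at 195, 102, 110 and 126 CPM in metastases 1 to 4. Every HGA was below every AGASAC sample, and metastases 1 to 4 fell inside the range of the primary tumors. HGA differed from AGASAC by a log2 fold change of -3.00 ± 0.39 (SE; n = 10 and 11), a 7.97-fold lower level, with an adjusted p of 9.70e-06.

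PSMB8 was at 0.615, 5.58 and 19.4 CPM in HGA (lowest, median and highest), at 21.9, 41.0 and 88.1 CPM in primary AGASAC, and at 61.6, 21.5, 66.3 and 26.5 CPM in the metastases. HGA 2 was the highest HGA and remained under AGASAC 11, the lowest primary tumor, so the groups were separate. PSMB8 had a log2 fold change of -2.79 ± 0.39 with an adjusted p of 3.08e-05. PSMB10 was at 8.78, 11.0 and 25.8 CPM in HGA, at 23.8, 49.2 and 95.6 CPM in primary AGASAC, and at 103, 45.1, 64.0 and 61.7 CPM in the metastases. Its groups overlapped only through HGA 2, which lay above AGASAC 10, and the log2 fold change was -2.05 ± 0.29 with an adjusted p of 2.69e-05.

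The activator and the constitutive subunits did not follow. PSME1 and PSME2, which form the interferon-inducible proteasome activator, had log2 fold changes of 0.49 ± 0.15 (adjusted p = 0.0762) and 0.43 ± 0.17 (adjusted p = 0.370). A wider list of 17 proteasome genes held PSMB5, PSMB6 and PSMB7, other PSMA and PSMB subunits, PSME3, PSME4 and POMP. Of the list, only PSMB5, PSMB6 and PSMB7 are the subunits replaced in the immunoproteasome. Among the 17 genes, 6 were called higher in HGA and 0 lower, against 12.6% and 12.5% of all genes. Their median log2 fold change was 0.85. Among them, PSMB5 had a mean of 472 CPM in HGA and 139 CPM in AGASAC, and PSMB7 had 328 and 165 CPM. PSMB6, at 193 and 151 CPM, was not called, with a log2 fold change of 0.39 ± 0.17. The summed level of PSMB8, PSMB9 and PSMB10 was 0.0222 to 0.0774 times that of PSMB5, PSMB6 and PSMB7 in HGA, 0.204 to 1.25 times in primary AGASAC, and 0.440 to 0.632 times in the metastases. No HGA reached the lowest AGASAC value of this ratio, as the plot of the subunit ratios shows.

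**Figure D2:**
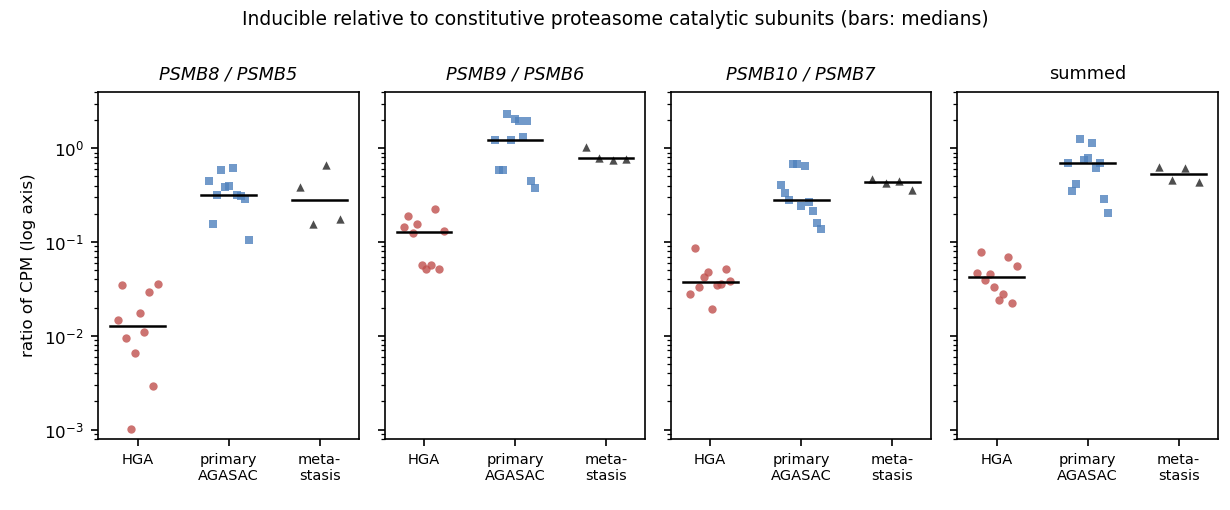
Ratio of the CPM of each inducible to its constitutive catalytic subunit, and of their sums, on a log axis, with a point per sample and bars at the medians. In each of the 4 panels the 10 HGA lie below the 11 primary AGASAC and the 4 metastases. The summed ratio had a median of 0.0427 in HGA, 0.693 in primary AGASAC and 0.537 in the metastases.

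Of 7 peptide transport and loading genes, 3 were called lower, against 12.5% of all genes. TAP1 was at 5.13, 9.64 and 41.9 CPM in HGA, at 41.6, 105 and 251 CPM in primary AGASAC, and at 147, 66.9, 101 and 106 CPM in the metastases. HGA 8 alone reached the level of the lowest primary tumor, AGASAC 11. The log2 fold change was -2.80 ± 0.41 with an adjusted p of 4.94e-05. TAP2, the other half-transporter, and TAPBP (tapasin, which bridges the transporter and the heavy chain) were called lower too, with log2 fold changes of -1.37 ± 0.23 and -1.44 ± 0.32. The quality control chaperones showed smaller differences, with log2 fold changes of -0.62 ± 0.12 for PDIA3 (adjusted p = 0.00195, under the fold limit), -0.51 ± 0.14 for CALR and 0.56 ± 0.19 for CANX, and TAPBPL was not called at -0.74 ± 0.42. In the RefSeq annotation of UU_Cfam_GSD_1.0, a different build from the CanFam3.1 of the files, TAP2, PSMB8, TAP1 and PSMB9 are consecutive protein-coding genes. The authors' counting extended annotations beyond the 3′ ends, and whether it used strand is not given in the sources used here.

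The class I heavy chain rows were lower in HGA in 4 of 4 cases. DLA-64, the most abundant class I row, was at 171, 450 and 1012 CPM in HGA, at 481, 1069 and 2861 CPM in primary AGASAC, and at 1076, 1018, 834 and 1125 CPM in the metastases. The groups overlapped, since HGA 2 lay near the median AGASAC. HGA differed from AGASAC by a log2 fold change of -1.57 ± 0.37 with an adjusted p of 0.0119. DLA88, a classical class I gene of the dog, was at 138, 425 and 943 CPM in HGA, at 512, 1027 and 2895 CPM in primary AGASAC, and at 977, 899, 896 and 1032 CPM in the metastases. DLA-12 was at 18.4, 51.8 and 106 CPM in HGA, at 61.4, 159 and 357 CPM in primary AGASAC, and at 168, 122, 93.3 and 91.7 CPM in the metastases. In both rows AGASAC 3 was the lowest primary tumor and no HGA reached the AGASAC median. DLA88 had a log2 fold change of -1.60 ± 0.37 (adjusted p = 0.00894) and DLA-12 of -1.74 ± 0.34 (adjusted p = 0.00206).

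These 3 rows may share reads and were not treated as independent. The authors spread reads that map to several places evenly over those places, and the ratio of DLA-64 to DLA88 was 0.857 to 1.23 over the 25 samples, while that of DLA-12 to DLA88 varied more, from 0.0662 to 0.227. Summed into a single row, which was added after the data were seen, they had a log2 fold change of -1.59 ± 0.37 with an adjusted p of 0.00938. DLA-79, a divergent nonclassical class I gene, was at 0, 4.34 and 27.9 CPM in HGA, at 12.2, 48.8 and 126 CPM in primary AGASAC, and at 64.2, 25.2, 13.8 and 26.5 CPM in the metastases. HGA 4 and HGA 9 had no count of it, and HGA 8 alone lay within the AGASAC range. Its log2 fold change was -3.24 ± 0.61 with an adjusted p of 0.00115.

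B2M, the light chain that every class I molecule needs, was not called. It was at 174, 500 and 1400 CPM in HGA, at 356, 997 and 2210 CPM in primary AGASAC, and at 1017, 1174, 527 and 867 CPM in the metastases. The ranges overlapped over most of their length, and HGA 2 and HGA 8 were above the AGASAC median. It had a log2 fold change of -0.72 ± 0.36 with an adjusted p of 1.00 (unadjusted p = 0.0549 in edgeR's quasi-likelihood test). The trimming peptidase ERAP1 had means of 26.1 CPM in HGA and 26.5 CPM in AGASAC and a log2 fold change of 0.01 ± 0.29.

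**Figure D3:**
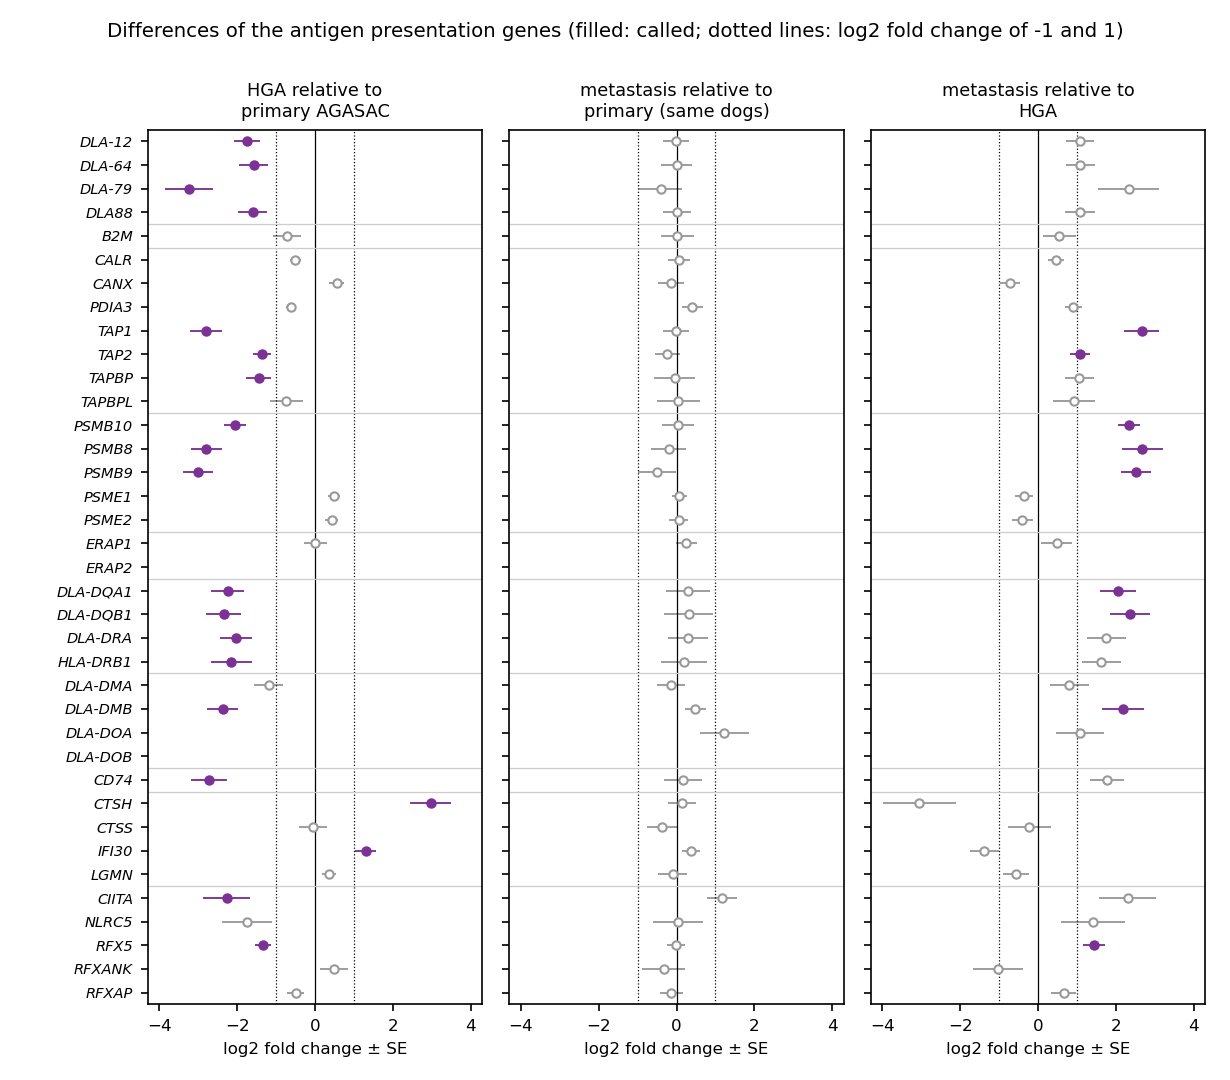
Log2 fold changes with standard errors of the genes tested in each of 3 comparisons, with filled points for called genes and dotted lines at the fold limit. The left panel has 18 filled points below 0 and 2 above, the middle panel has none, and the right panel has 9 above 0.

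In the class II route, the chains and CD74 were lower in HGA. CD74 was at 24.3, 51.3 and 236 CPM in HGA, at 97.0, 427 and 938 CPM in primary AGASAC, and at 200, 253, 149 and 348 CPM in the metastases. HGA 8 alone overlapped the AGASAC range, since the next HGA was at 79.3 CPM. The log2 fold change was -2.73 ± 0.46 with an adjusted p of 3.85e-04. In bulk tissue, fewer cells of a type and less RNA per cell cannot be told apart, and this holds for each of the genes here.

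All 4 alpha and beta chain rows were called lower. DLA-DRA was at 25.5, 55.7 and 298 CPM in HGA, at 80.9, 373 and 606 CPM in primary AGASAC, and at 261, 448, 126 and 244 CPM in the metastases. HLA-DRB1, the most abundant beta chain row, was at 60.4, 146 and 780 CPM in HGA, at 66.6, 1082 and 2328 CPM in primary AGASAC, and at 647, 958, 246 and 806 CPM in the metastases. HGA 8 was the highest HGA in each of these rows, and in HLA-DRB1, but not in DLA-DRA, AGASAC 10 was the lowest primary tumor. The log2 fold changes were -2.03 ± 0.42 for DLA-DRA (adjusted p = 0.00369) and -2.15 ± 0.52 for HLA-DRB1 (adjusted p = 0.0164).

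AGASAC 10 stood apart in the ratio of the levels of the DR chain rows, and the cause was not tested. Its ratio of HLA-DRB1 to DLA-DRA was 0.266, while the other primary tumors had 1.87 to 3.97, HGA had 1.65 to 4.17 and the metastases had 1.95 to 3.31. DLA-DQA1 was at 7.55, 14.0 and 61.6 CPM in HGA, at 27.2, 76.1 and 229 CPM in primary AGASAC, and at 49.0, 108, 44.1 and 143 CPM in the metastases, with a log2 fold change of -2.24 ± 0.42. DLA-DQB1 was at 2.43, 5.90 and 26.3 CPM in HGA, at 9.78, 27.5 and 71.4 CPM in primary AGASAC, and at 22.4, 54.1, 19.3 and 56.2 CPM in the metastases, with a log2 fold change of -2.34 ± 0.45. In both DQ genes HGA 8 was again the highest HGA, and the other HGA were at or below 26.8 CPM for DLA-DQA1 and 7.23 CPM for DLA-DQB1.

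The exchange factors had low counts. DLA-DMB, a chain of the DM molecule that loads peptides, was at 0, 8.82 and 14.3 CPM in HGA, at 19.3, 42.4 and 88.9 CPM in primary AGASAC, and at 32.1, 48.8, 25.1 and 39.0 CPM in the metastases. Every HGA was below every AGASAC, and HGA 9 had no count. Its log2 fold change was -2.37 ± 0.40 with an adjusted p of 3.38e-04, and its partner DLA-DMA was not called at -1.19 ± 0.38. DLA-DOA and DLA-DOB, which restrain DM and are best known from B cells, had means of 2.92 and 0.392 CPM in HGA and 4.93 and 2.39 CPM in primary AGASAC.

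The lysosomal proteases and reductase of the class II route did not follow the chains. CTSH, an aminopeptidase cathepsin, was at 32.7, 599 and 2891 CPM in HGA, at 59.3, 104 and 203 CPM in primary AGASAC, and at 137, 137, 69.5 and 53.7 CPM in the metastases. HGA 9 was the highest and HGA 10, below every primary tumor, the lowest, while HGA 2 and HGA 8 at 108 and 170 CPM lay inside the AGASAC range. HGA differed from AGASAC by a log2 fold change of 2.97 ± 0.53 with an adjusted p of 6.80e-04. IFI30, which reduces disulfide bonds of antigens, was called higher with a log2 fold change of 1.30 ± 0.28, and its levels were 76.5 to 308 CPM in HGA and 37.8 to 163 CPM in primary AGASAC. CTSS, which degrades the invariant chain in professional antigen-presenting cells, and LGMN, an asparaginyl endopeptidase, were not called, with log2 fold changes of -0.06 ± 0.36 and 0.35 ± 0.18. Among 10 tested genes of general lysosomal traffic, 4 were called higher in HGA and 0 lower, against 12.6% and 12.5% of all genes. The 4 included LAMP1 at a mean of 1089 CPM in HGA and 458 CPM in AGASAC and LAMP2 at 714 and 208 CPM.

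Of the regulators, 2 of 5 were called lower, against 12.5% of all genes. CIITA, the master coactivator of class II genes, was at 0, 1.28 and 6.57 CPM in HGA, at 3.64, 6.86 and 27.4 CPM in primary AGASAC, and at 9.41, 17.8, 9.33 and 10.9 CPM in the metastases. HGA 2, HGA 5 and HGA 8 lay inside the AGASAC range, and AGASAC 5, 6 and 7 were the highest. CIITA had a log2 fold change of -2.27 ± 0.61 with an adjusted p of 0.0367, a call that was lost without AGASAC 5, 6 or 7 or HGA 1, 3, 4, 6, 7, 9 or 10, and when low counts were not filtered. RFX5, a subunit of the factor that binds class II promoters, had separate groups, 6.84 to 15.9 CPM in HGA and 18.2 to 43.7 CPM in primary AGASAC, and a log2 fold change of -1.34 ± 0.20. NLRC5, the coactivator of class I genes, was at 0 in the lowest HGA, at 2.15 and 2.24 CPM in the middle pair and at 14.0 CPM in the highest, at 3.26, 4.74 and 29.7 CPM in primary AGASAC, and at 5.52, 12.7, 8.04 and 10.2 CPM in the metastases. HGA 8 and HGA 5 reached into the AGASAC range, and NLRC5 was not called (-1.75 ± 0.65, adjusted p = 0.301), although it was without HGA 8. The other RFX subunits RFXAP and RFXANK had log2 fold changes of -0.50 ± 0.23 and 0.49 ± 0.37.

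Genes of the interferon gamma pathway were mixed. Of 10 tested genes of a list of this pathway, 2 were called lower in HGA and 2 higher, against 12.5% and 12.6% of all genes. IRF1, a transcription factor that activates class I and CIITA promoters, had means of 29.5 CPM in HGA and 142 CPM in AGASAC with a log2 fold change of -2.24 ± 0.34, and IFNGR1, a receptor chain, had 8.32 and 37.6 CPM with -2.13 ± 0.46. JAK2, a kinase of the same receptor, and SOCS1, its feedback inhibitor, were called higher in HGA, with log2 fold changes of 2.55 ± 0.34 and 2.21 ± 0.57. IFNG itself had no count in any HGA and a mean of 1.61 CPM in primary AGASAC. The promoter partners NFYA, NFYB, NFYC and CREB1 were called in 0 of 4 cases, with a median log2 fold change of 0.20.

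Markers of immune cells were mostly lower in HGA in direction, although few of them passed the test. The summed CPM of 21 myeloid and dendritic markers were 216 to 475 in HGA, 248 to 828 in primary AGASAC and 314 to 727 in the metastases, and 3 of 16 tested were called lower in HGA and 0 higher, where 12.5% of all genes were called lower. Of the 16, 14 had a log2 fold change below 0, with a median of -0.64. The 3 called markers were CD14, C1QB and ITGAM, with log2 fold changes of -1.33 ± 0.33, -1.26 ± 0.29 and -4.77 ± 0.91. ITGAM was at 0 to 4.70 CPM in HGA and spread from 0 to 163 CPM in primary AGASAC. CSF1R was at means of 33.9 and 42.9 CPM with -0.31 ± 0.34. CD80 went the other way, at means of 38.5 and 12.5 CPM with 1.65 ± 0.61, and was not called. The summed CPM of 16 T and NK cell markers were 5.71 to 75.6 in HGA and 21.6 to 619 in primary AGASAC, and 4 of 4 tested had a log2 fold change below 0, with a median of -1.56. The single called T cell marker was CD8B, whose level of 592 CPM made up most of the sum of 619 CPM in AGASAC 10. Its log2 fold change was -3.84 ± 1.04 (adjusted p = 0.0411), and without AGASAC 10 it was -1.27 ± 0.62 (adjusted p = 0.968). Without HGA 8, CD8B was not called either (-3.82 ± 1.12, adjusted p = 0.0752). The summed CPM of 12 B cell markers were 6.76 to 89.5 in HGA and 19.6 to 68.9 in primary AGASAC, and those of 6 plasma cell markers 5.53 to 109 and 31.6 to 197. Only 2 of the B cell and 1 of the plasma cell markers passed the filter and were tested, with 0 called. Their median log2 fold changes were -0.77 and -0.99. MS4A1, the defining B cell marker, had means of 0.904 and 2.51 CPM. The part of these cells in the differences of the class II genes was not tested.

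HGA 8 was the highest HGA for 14 of the 35 genes with a mean count of at least 10, among them CD74, DLA-DRA, HLA-DRB1, DLA-DQA1, DLA-DQB1 and CIITA. Its summed class II chains reached 1166 CPM, and the next HGA was at 327 CPM. It was also the highest HGA in the summed markers of B cells (89.5 CPM), plasma cells (109 CPM), T and NK cells (75.6 CPM) and myeloid cells (475 CPM). Without HGA 8, 21 genes were called, which were the 20 genes and NLRC5. Among primary tumors, AGASAC 7 was the highest in 10 of the 35 genes and AGASAC 3 and 11 the lowest in 13 and 9.

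**Figure D4:**
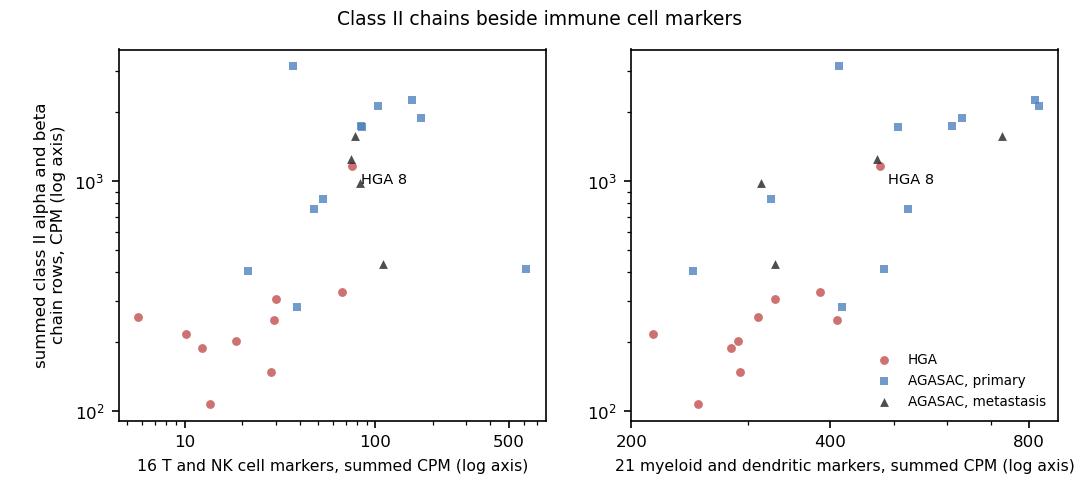
Summed CPM of the 4 class II alpha and beta chain rows against the summed CPM of 16 T and NK cell markers (left) and of 21 myeloid and dendritic markers (right) on log axes, with a point per sample. HGA 8, at 1166 CPM of class II chains, lies among the AGASAC samples, and the other HGA are at or below 327 CPM. AGASAC 10 lies far to the right in the left panel at 619 CPM.

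Samples also differed in extraction batch and in the letter series of their block names, both taken from the study's sample sheets. Within extraction batches 5, 6 and 8, which hold at least 2 samples of each tumor type, the median log2 fold change of the genes was -1.44, -1.32 and -1.36, and with batch as a covariate the same 20 genes were called. With 2 to 3 samples of a type in a batch, 0, 3 and 1 genes were called within these batches. Naming series A holds 9 HGA but only AGASAC 1 to 3, and series B holds 7 primary AGASAC but only 1 HGA. Within series A the median log2 fold change was -0.75, and 6 genes were called, PSMB8, PSMB9, PSMB10, TAP1, RFX5 and IFI30. The log2 fold changes within series A were -2.50 for PSMB9, -2.67 for PSMB8, -2.01 for PSMB10 and -2.31 for TAP1, near those of all tumors. They were -0.92 for CD74, -0.92 for DLA-DRA, -0.53 for DLA-64, -0.77 for CIITA and -0.25 for NLRC5, each smaller in size than over all tumors. CTSH and DLA-79 were no longer called within series A, at log2 fold changes of 3.20 and -2.71. AGASAC 1 to 3 are also 3 of the 4 tumors with a sampled metastasis, so the naming series and having a metastasis cannot be told apart among the primary tumors.

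Each lymph node metastasis has its primary tumor among AGASAC 1 to 4, so the next comparison set these 4 against 4. The main test did not pair the samples by dog, so its standard errors and p values do not use the pairing. None of the 35 antigen presentation genes tested was called, and of all 12629 genes tested 0% were called by the same edgeR test. Of all genes, 88 were higher and 57 lower at an unadjusted p under 0.05, while DESeq2 called 5 genes and edgeR with the dog as a block 1, and none of these was an antigen presentation gene. The median log2 fold change of metastasis relative to primary tumor was 0.04 over the 35 genes and 0.00 over all genes. The class I rows were nearly level, with log2 fold changes of 0.00 ± 0.39 for DLA-64, 0.01 ± 0.36 for DLA88 and 0.02 ± 0.42 for B2M. For PSMB9 and TAP1 they were -0.50 ± 0.48 and -0.02 ± 0.33, and for CD74 and DLA-DRA 0.17 ± 0.48 and 0.30 ± 0.51. With 4 dogs, even a difference of 3 standard errors in this unpaired test, such as that of CIITA (1.17 ± 0.39), was not called. With the dog as a block the log2 fold change of CIITA was 1.16, which was not called either.

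CIITA and DLA-DOA had metastases and primary tumors that did not overlap, which 1.14% of all genes tested showed. CIITA was at 4.22, 4.25, 4.45 and 8.06 CPM in primary tumors 1 to 4 and at 9.41, 17.8, 9.33 and 10.9 CPM in their metastases. It was higher in the metastasis in 4 of 4 dogs. The log2 fold change was 1.17 ± 0.39 with an adjusted p of 1.00 (unadjusted p = 0.0145 in edgeR's quasi-likelihood test), and against all 11 primary tumors it was 0.05. DLA-DOA had means of 6.38 CPM in the metastases and 2.69 CPM in the primary tumors, with a log2 fold change of 1.23 ± 0.62 and an adjusted p of 1.00. Its counts were 7, 12, 1 and 16 in primary tumors 1 to 4 and 20, 27, 17 and 20 in their metastases. The filter's minimum count of 10 was met by every metastasis but not by every primary tumor. The separation of DLA-DOA and its place among the genes tested are therefore not independent of the filter. In all, 5 of the 37 genes were higher in the metastasis in 4 of 4 dogs, CIITA, DLA-DMB, DLA-DOA, DLA-DOB and PDIA3, and 0 were lower in 4 of 4. Among the genes tested, these were 4 of 35 and 0 of 35, against 6.73% of all 12629 genes higher and 5.68% lower in every dog. Marker sums beside these in the metastases were 44.7 to 73.3 CPM for B cells, 74.8 to 110 CPM for T and NK cells and 4.87 to 70.9 CPM for lymph node stroma. The 4 primary tumors of these dogs had 19.6 to 54.9 CPM for B cells, 38.8 to 85.1 CPM for T and NK cells and 11.8 to 30.3 CPM for lymph node stroma. The part of lymph node cells was not tested.

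Metastases were then compared with HGA, which differ from them in tumor type and in site. Of the 35 genes tested, 9 were called higher in the metastases and 0 lower, against 7.69% and 8.40% of the 13195 genes tested. The 9 genes were PSMB8, PSMB9, PSMB10, TAP1, TAP2, DLA-DMB, DLA-DQA1, DLA-DQB1 and RFX5, and 5 genes were called without metastasis 2 or without metastasis 4, and 6 without metastasis 1 or 3 or HGA 5, 6 or 7. PSMB9, PSMB10 and TAP1 were called whichever single sample was left out, while the calls of TAP2, DLA-DMB, DLA-DQA1, DLA-DQB1, PSMB8 and RFX5 were each lost without at least 1 sample. The log2 fold changes of metastasis relative to HGA were 2.68 ± 0.52 for PSMB8, 2.66 ± 0.46 for TAP1, 2.52 ± 0.38 for PSMB9 and 2.34 ± 0.29 for PSMB10, with adjusted p values of 0.00963, 0.00356, 0.00110 and 1.46e-04. The levels did not overlap in 8 of the 35 genes, against 16.1% of all genes tested. CD74 missed the threshold at 1.77 ± 0.44 (adjusted p = 0.0534), as did DLA-64 at 1.09 ± 0.38 (adjusted p = 0.390) and CTSH at -3.05 ± 0.93 (adjusted p = 0.191). These metastases are the same 4 samples as in the comparison with primary tumors, and the HGA the same 10 as in the comparison of entities. The class I and DR rows were called in the comparison with 11 primary tumors and not in that with 4 metastases, and the difference between those effects was not tested.

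Finally, pairs of single genes were followed across the tumors of a type, with 8 relations computed. In primary AGASAC (n = 11), TAP1 and PSMB9 had a Pearson r of 0.925 and a Spearman rho of 0.900 on log2(CPM + 1), with permutation p values of 1.10e-04 and 4.40e-04 (Benjamini-Hochberg adjusted 8.80e-04 and 0.00304). CIITA and CD74 had an r of 0.817 and a rho of 0.882, with permutation p values of 0.00297 and 7.60e-04 (adjusted 0.0119 and 0.00304). NLRC5 and B2M had an r of 0.781 and a rho of 0.764, with permutation p values of 0.00665 and 0.00816 (adjusted 0.0177 and 0.0218). Without the 2 tumors farthest from the median of the regulator or of TAP1, r was 0.945, 0.730 and 0.729. Within naming series B (n = 7), r was 0.958, 0.757 and 0.866, and no extraction batch held 6 samples of a type.

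CSF1R, the receptor of macrophages, and CD74 had an r of 0.590 in primary AGASAC with a permutation p of 0.0503 (adjusted 0.0804) and a rho of 0.536 with a permutation p of 0.0940 (adjusted 0.150). Without the 2 farthest tumors its r was 0.554, and within naming series B it was 0.717. In HGA (n = 10), TAP1 and PSMB9 had an r of 0.703 with a permutation p of 0.0282 (adjusted 0.0564) and a rho of 0.612 with a permutation p of 0.0661 (adjusted 0.132). The r of CIITA with CD74, of NLRC5 with B2M and of CSF1R with CD74 was 0.322, 0.068 and 0.552 in HGA, with permutation p values of 0.404, 0.858 and 0.0870 (adjusted 0.461, 0.858 and 0.116), and rho was 0.030, 0.128 and 0.515, with permutation p values of 0.947, 0.724 and 0.134 (adjusted 0.947, 0.828 and 0.178). Without the 2 farthest HGA, r was 0.523 for TAP1 and PSMB9, 0.347 for CIITA and CD74, -0.465 for NLRC5 and B2M and 0.657 for CSF1R and CD74. Within naming series A (n = 9) these were 0.681, 0.314, 0.090 and 0.550. Whether the relations differ between HGA and AGASAC was not tested.

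**Figure D5:**
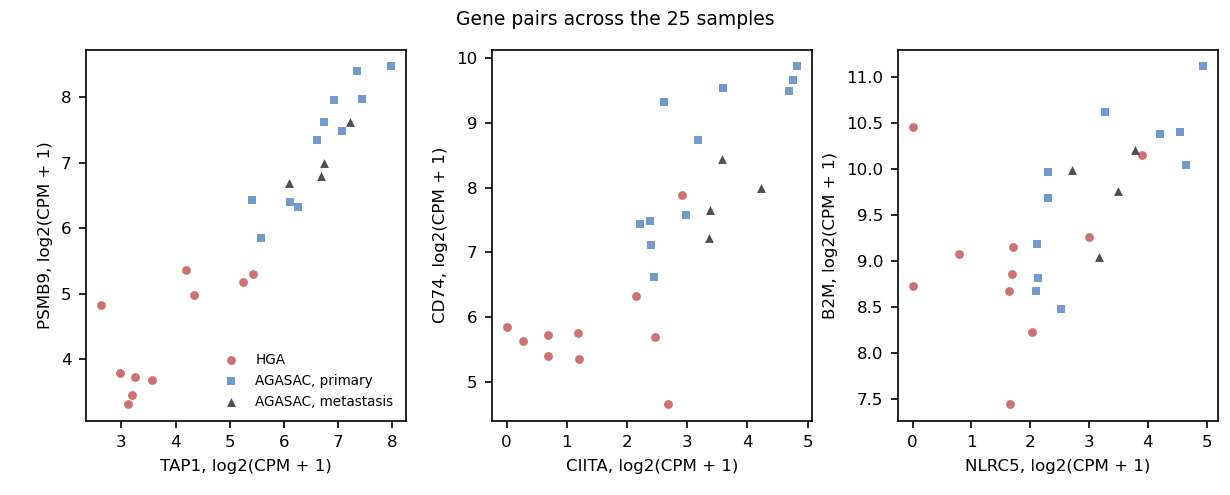
Levels of TAP1 and PSMB9, CIITA and CD74, and NLRC5 and B2M as log2(CPM + 1) in the 25 samples, with a point per sample and symbols by group. The 11 primary AGASAC lie along a rising diagonal in each panel (r of 0.925, 0.817 and 0.781), and most HGA lie lower on the x axis. In the panel of NLRC5 and B2M, HGA 8 lies among the AGASAC at 14.0 and 1132 CPM, and HGA 2 has high B2M and no NLRC5 count.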

How the data were processed

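RNA of 25 FFPE samples was sequenced with QuantSeq 3′ FWD. The authors trimmed reads with cutadapt, aligned them with STAR to CanFam3.1 and counted them with featureCounts, first on the annotation and then on one extended at the 3′ end, with multi-mapped reads spread evenly, and deposited raw counts per gene. The table also holds counts the authors divided by size factors (a signal), and the log2 fold changes, p-values and means of the authors' own comparison, which were not used. 0 columns of per-sample values were left over.

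Counts were tested with edgeR 4.0.16 (R 4.3.3; filterByExpr with a minimum count of 10 and total of 15, TMM, glmQLFit and glmQLFTest), adjusted by Benjamini-Yekutieli over all genes tested, and called where the adjusted p was 0.05 or less with a log2 fold change of 1 or more in size. HGA (n = 10) were compared with primary AGASAC (n = 11), metastases (n = 4) with primary tumors 1 to 4 of the same dogs, and metastases with HGA. These main fits held no term for dog or batch. The fit was tested on simulated data. Relations used log2(CPM + 1) and 100000 permutations, two-sided. DV200 was 70.5% to 92.7% in HGA, 70.2% to 84.4% in primary AGASAC and 71.8% to 82.9% in metastases. No libraries were duplicates. Nothing in the labels says more than that samples are separate tumors, and metastases 1 to 4 share dogs with primary tumors 1 to 4: deviations of same-numbered samples correlated at 0.428 to 0.730 in 4 of 4 dogs. Alternatives were other scaling (RLE, library size), no filter, DESeq2 1.42.0, Benjamini-Hochberg adjustment, leaving out each sample, batches, replicate blocks and, added after seeing the data, summed class I rows.

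The lowest, median and highest level in HGA and primary AGASAC and the level in each metastasis were given for a set of genes. These were B2M, CD74, CIITA, NLRC5, TAP1, PSMB9, the most abundant class I, class II alpha and class II beta rows and up to 16 called genes by size of fold change. The genes, gene lists and rule were chosen with earlier results of these data known. Sequences are not shown, and 1 gene of the interferon gamma list is not reported here and was left out of the list's counts. Of the 38 rows, 37 matched a symbol in RefSeq.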

Additional observations from a re-analysis of the deposited data

Results flagged for a closer look

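Of 74 groups of 4 to 10 samples that were examined, 11 had a highest or lowest sample far from the others by Dixon's test at 95%, and chance flags about 1 in 20. The test used log2(CPM + 1), so a low sample can be far on that scale without being far in CPM. HGA 8 was the far sample in 5 of them, with 236 CPM of CD74, 298 CPM of DLA-DRA, 780 CPM of HLA-DRB1, 26.3 CPM of DLA-DQB1 and 10.7 CPM of DLA-DOA, each the highest HGA. HGA 10 was the lowest HGA in 3, with 358 CPM of CANX, 79.6 CPM of PSME2 and 19.8 CPM of TAPBP. HGA 9 had 0 CPM of DLA-DMB, HGA 2 had 92.2 CPM of TAP2 as the highest HGA, and metastasis 4 had 440 CPM of PDIA3 as the highest metastasis. HGA 8 was also the highest HGA in summed B cell (89.5 CPM), plasma cell (109 CPM), T and NK cell (75.6 CPM) and myeloid (475 CPM) markers, whose part in these values was not tested. The group of primary AGASAC was too large for this test.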

How the results depend on the processing

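For HGA versus AGASAC, 20 genes were called, and 19 to 21 when any single sample was left out. The count was 20 with RLE scaling and with extraction batch as a covariate, 21 with library size alone (which moved the median of all genes from -0.03 to -0.33) and with DESeq2, 22 with Benjamini-Hochberg adjustment, and 17 with a replicate block on the label number, which does not pair these samples (correlations of -0.0554 to 0.0409). It was 0, 3 and 1 within extraction batches 5, 6 and 8, each with 5 or 6 samples, and 6 within naming series A, where the median log2 fold change of the genes was also nearer to 0 (-0.75 against -1.41) and 2157 genes of all were still called. For metastases versus HGA, 9 genes were called, 5 to 11 when any single sample was left out (5 without metastasis 2 or 4, 11 without HGA 8), 13 with DESeq2, 20 with Benjamini-Hochberg adjustment, and 1 with a replicate block on the label number, which uses 4 of the HGA. For metastases versus primary tumors, 0 genes were called in every alternative run, the replicate block by dog included. No named gene changed direction in the comparisons with HGA, and DLA-64, DLA88 and others near 0 did between metastases and primary tumors: against all 11 primary tumors the log2 fold change was -0.19 for B2M, -0.96 for CD74, -0.33 for NLRC5, -0.49 for DLA-64, -0.54 for DLA88, -0.27 for DLA-DRA, -0.53 for HLA-DRB1, -0.09 for CTSH, and -0.20 for DLA-DMB and DLA-DQA1. With the dog as a block it was 0.02 for TAP1 and 0.06 for DLA-12, with library size alone -0.01 for DLA-64 and -0.00 for DLA88, and the single row summed from DLA88, DLA-64 and DLA-12 was at 0.01, where DLA-12 alone was at -0.01. Leaving out single samples gave ranges of -0.24 to 0.32 for B2M, -0.08 to 0.80 for CD74, -0.20 to 1.13 for NLRC5, -0.22 to 0.27 for TAP1, -0.23 to 0.48 for DLA-64, -0.08 to 0.80 for DLA-DRA, -0.12 to 0.72 for HLA-DRB1, -0.08 to 0.34 for CTSH, -0.47 to 0.02 for PSMB8, -0.06 to 1.07 for DLA-DQA1, -0.21 to 0.30 for PSMB10, -0.22 to 0.18 for DLA-12 and -0.19 to 0.47 for DLA88. The r of NLRC5 and B2M in HGA was -0.003 with a pseudocount of 0.5. The causes were not tested. Low counts limit CIITA, NLRC5, DLA-79, DLA-DOA, DLA-DOB and ERAP2, which have libraries at 0 or near it. Single HGA were also low for PSMB8, with 1 count in HGA 4 and 5 in HGA 5 and HGA 9. The same holds for DLA-DMB, with 0 counts in HGA 9 and 7 in HGA 5.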
